A study of Mus musculus with 24 samples.

Results

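Dscam, a neuronal adhesion gene that is present in 3 copies in Ts1Cje mice, was compared with 8 neural adhesion genes of the immunoglobulin family. These were Ncam1, L1cam, Chl1, Nrcam, Nfasc, Cntn1, Cntn2 and Alcam, which have no extra copy in Ts1Cje and are called disomic here. L1cam is on the X chromosome, so its copy number depends on sex, which the labels do not give. The members were the probe sets whose platform annotation gave one of these 9 symbols alone. There were 21 of them, 9 among the 12422 probe sets of the MGU74A design (array A) and 12 among the 12411 of the MGU74B design (array B), and every one of the 9 genes, of 13674 annotated genes in all, had at least 1. The samples were total RNA of mouse brain, with 6 2N and 6 Ts1Cje samples on each array, 24 arrays in all. 2N mice have the normal chromosome complement. Ts1Cje mice, a model of Down syndrome, carry a translocated extra copy of a distal part of chromosome 16, on which the Sod1 gene at the boundary is disrupted. The labels give no age, sex, strain, brain region or litter, and do not tie a sample to an animal. The tests therefore rest on the scatter among samples, part of which may be technical.

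Adhesion molecules of the immunoglobulin family are cell-surface proteins with extracellular immunoglobulin domains, most of them followed by fibronectin type III repeats. They bind the same molecule or related ones on neighbouring cells and act in axon growth, fasciculation, target recognition and the assembly of nodes of Ranvier. Dscam, named for its position in the Down syndrome region of human chromosome 21, mediates homophilic recognition and self-avoidance of dendrites and can act in netrin-guided axon growth. Ncam1 carries polysialic acid in the developing brain. L1cam, Chl1, Nrcam and Nfasc form the L1 family, whose cytoplasmic tails can bind ankyrins. Cntn1 and Cntn2 are contactins, held in the membrane by a lipid anchor, and Alcam is a shorter molecule that binds itself and the lymphocyte receptor Cd6.

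Dscam rose in Ts1Cje brain. The single Dscam probe set was on array B, and its intensities, given after quantile normalisation and in replicate order, were 41.8, 41.0, 31.1, 36.2, 34.0 and 43.3 in the 2N samples. In the Ts1Cje samples they were 77.1, 75.8, 57.0, 74.3, 56.3 and 52.3. All 6 Ts1Cje samples lay above the highest 2N sample, and within Ts1Cje, replicates 1, 2 and 4 were the high ones. On array B 0.193% of the 9308 tested probe sets had all Ts1Cje samples above all 2N samples.

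The 2N mean was 37.9 ± 4.85 and the Ts1Cje mean 65.5 ± 11.4 (SD, n = 6 each), which gave a log2 difference of 0.78 (SE 0.13). This corresponds to 1.72-fold, with a 95% interval of 1.43 to 2.06 that holds the 1.5-fold ratio of 3 copies to 2. The Benjamini-Hochberg adjusted p of limma over all 9308 probe sets was 0.0164, and Dscam had the 3rd smallest p of that table, where 0.0645% of probe sets passed 0.05, each of them higher in Ts1Cje. A log2 difference at least as high as that of Dscam was reached by 154 probe sets of array B, Dscam included. The two-sided exact permutation p of Dscam alone was 0.00216, the smallest that 6 samples against 6 allow.

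**Figure D1:**
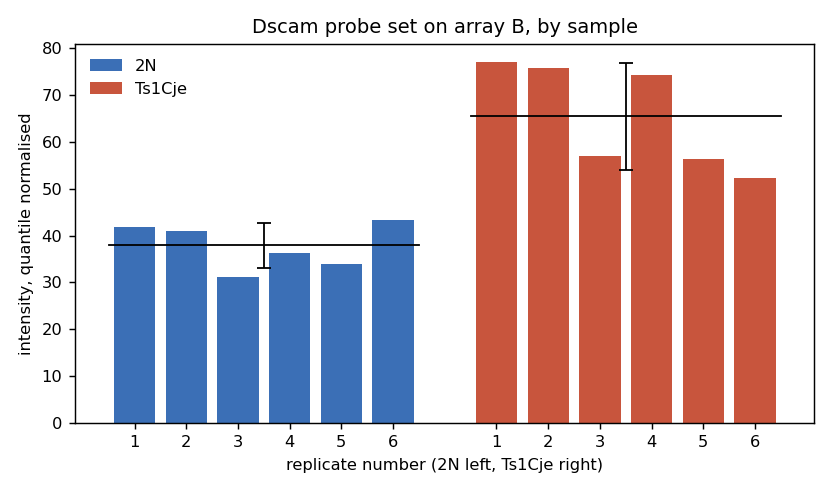
Quantile-normalised intensity (vertical axis, linear, from 0) of the Dscam probe set in each of 6 2N and 6 Ts1Cje samples on array B; the horizontal line is the mean of a genotype and the error bar its SD. The lowest Ts1Cje sample, at 52.3, lies above the highest 2N sample, at 43.3.

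The Dscam difference was also taken separately in replicates 1 and 2 and in replicates 3 to 6, a split that comes from the values of all probe sets and not from the labels. Within replicates 3 to 6 the log2 difference was 0.73 (exact permutation p = 0.0286, the smallest possible with 4 against 4), and within replicates 1 and 2 it was 0.89 (exact p = 0.333, the smallest possible with 2 against 2). With the split as a term of the fit the limma adjusted p was 0.00315, the lowest of the 25 refits. Because the split was drawn from these same values, this p adds no weight to the call. Within replicates 3 to 6 alone the limma adjusted p was 0.285 and within replicates 1 and 2 alone 0.464. The call was lost without 2N replicate 5 (limma adjusted p = 0.0514) and without Ts1Cje replicate 1 (0.0574), 2 (0.0547) or 4 (0.0526), with log2 differences between 0.73 and 0.75. In the deposited intensities, without normalisation between arrays, the groups overlapped, with 2N samples up to 58.5 and Ts1Cje samples between 41.3 and 110.8. There the log2 difference was 0.83 (exact permutation p = 0.0195, limma adjusted p = 0.99996). The limma call also ended without the filter on dim probe sets (adjusted p = 0.0613) and without the mean-variance trend (adjusted p = 0.207), both with the same difference of 0.78.

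The genes beside Dscam on chromosome 16, which share its extra copy, were dimmer and gave less precise values. The nearest tested gene on the centromeric side was Itgb2l, an integrin beta chain-like gene, with a log2 difference of -0.52 (SE 0.59). Sh3bgr, which encodes a protein with an SH3-binding motif, differed by 0.52 (SE 0.26), and Get1, which encodes a receptor for the insertion of tail-anchored membrane proteins, by 0.35 (SE 0.19). On the telomeric side Bace2, which encodes a protease related to beta-secretase, had a mean of 10.1 ± 3.04 in 2N against 9.78 ± 1.78 in Ts1Cje (SD, n = 6) and a difference of -0.01 (SE 0.24). Mx2, an interferon-induced GTPase gene, differed by 0.27 (SE 0.32) and the serine protease gene Tmprss2 by 0.24 (SE 0.47). None of these 6 neighbours passed (limma adjusted p of 0.99 or higher), and the intervals of all except Bace2 held 1.5-fold. Igsf5, an immunoglobulin-family gene between Sh3bgr and Dscam, was near the bottom of the scale at 1.54 ± 1.09 and 1.75 ± 0.920 and was not tested.

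**Figure D2:**
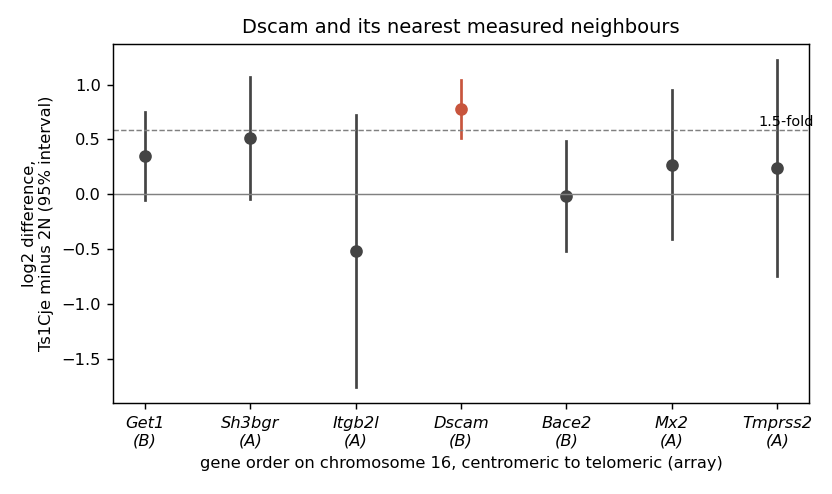
Log2 difference between Ts1Cje and 2N (vertical axis) with its 95% limma interval for Dscam and the 3 nearest tested genes on each side. Genes are in their order on chromosome 16, the letter under a gene is its array and the dashed line marks 1.5-fold. Dscam, at 0.78, is the gene of these 7 whose interval lies above 0.

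Variation of Dscam among samples of the same genotype was compared with that of the other named probe sets of array B. After each genotype's mean was subtracted, the most similar probe sets by Pearson's r over the 12 samples were those of the fatty acid synthase gene Fasn (r = 0.90), the deubiquitinase gene Yod1 (0.90), the postsynaptic scaffold gene Shank3 (0.89), Zbtb40 (0.89) and Cmss1 (0.89). These are the highest of 8293 values from arrays that share each sample's normalisation, and 5% of all values lay above 0.58. Their genotype differences ranged from -0.96 for Zbtb40 to 0.45 for Fasn, and none passed. Among the adhesion genes the highest r was 0.77, for an Alcam probe set, but the other Alcam probe set of array B was at 0.17. The remaining ones ran from -0.55 for a Cntn1 probe set, with the other Cntn1 probe set at 0.10, to 0.50 for an Nfasc probe set.

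The 8 disomic adhesion genes did not pass. Of their 20 probe sets, 17 were bright enough to be tested and 0 passed in limma, against 0.0966% (array A) and 0.0645% (array B) of all probe sets. An unadjusted limma p under 0.05 was reached by 1 of the 17, a Cntn2 probe set on array B that was lower in Ts1Cje. Of all probe sets 3.63% (array A) and 4.24% (array B) had one in either direction, and 1.72% and 2.11% had one and were lower in Ts1Cje. The log2 differences ran from -0.21 to 0.13, 7 above 0 and 10 below. With each gene represented by its brightest probe set, on array A where it was on both arrays, 7 genes were below 0 and 1 above. The median was -0.04, and of the 7 Chl1 and Nrcam were at only -0.00332 and -0.00396. The median over all tested probe sets was -0.00424 (array A) and -0.00346 (array B). With array B taken for genes on both arrays the median of the 8 genes was -0.00211. The split between genes above and below 0 changed too. On array B Cntn1 (0.12) and Alcam (0.02) were above 0, and L1cam (-0.14) and Chl1 (-0.000266) stayed below it.

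In the main fit the intervals limited the size of the intensity difference at each disomic probe set, each taken alone. Intervals of the refits were not set against 1.5-fold. The 95% interval ended below 1.5-fold for 17 of 17 probe sets, as it did for 70.1% (array A) and 65.1% (array B) of all probe sets. It held 0 for 16 of the 17, near the share of all probe sets (96.4% for array A, 95.8% for array B). For 7 it lay within 1.2-fold in either direction, a limit for which the share of all probe sets was not computed. The highest upper end was 0.44 and the lowest lower end -0.44. In none of the 17 were the samples of the genotypes fully separated, as they were, in either direction, in 0.301% (array A) and 0.247% (array B) of all probe sets.

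**Figure D3:**
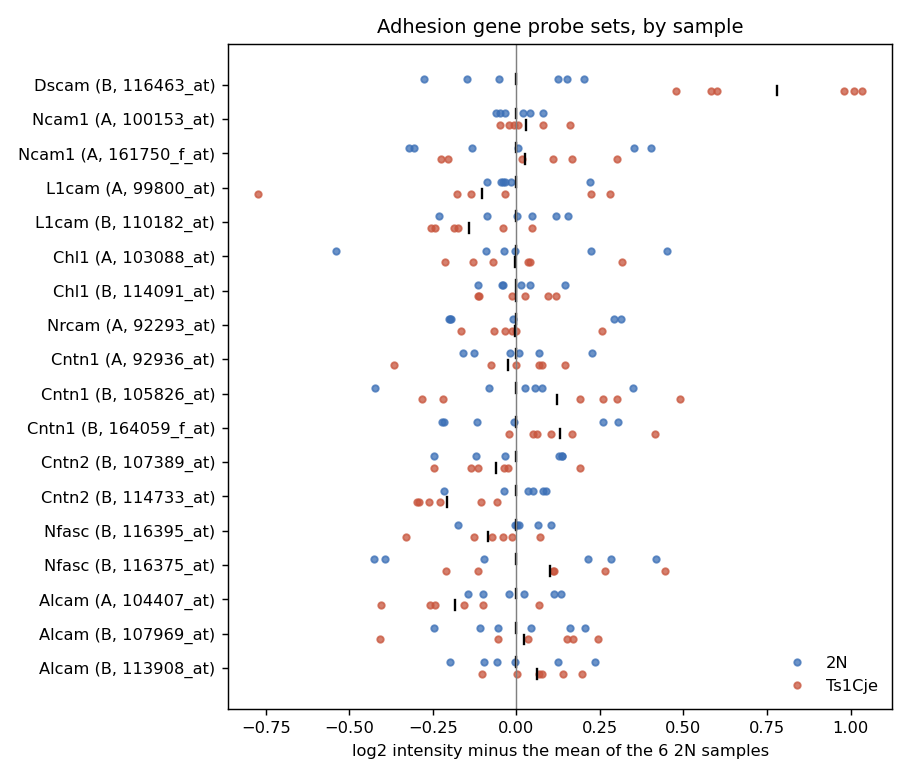
Log2 intensity of each sample minus the mean of the 6 2N samples (horizontal axis), for the 18 tested probe sets of the 9 genes (rows, with array and probe set); blue points are 2N, red points Ts1Cje, and the short vertical line is the mean of a genotype. The genotypes are apart for Dscam and overlap for the other 17 probe sets.

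Ncam1, the neural cell adhesion molecule gene, had 4 probe sets. The brightest ran from 1204 through a median of 1250 to 1328 in 2N and from 1213 through 1255 to 1404 in Ts1Cje. Samples of the genotypes were interleaved, and the log2 difference was 0.03 (SE 0.052, 95% interval -0.08 to 0.14), the narrowest interval of all members. A dimmer probe set, whose suffix marks probes shared with related sequences, ran from 45.5 to 75.2 in 2N and from 48.6 to 70.1 in Ts1Cje, with a difference of 0.03 (SE 0.15). Its highest samples were replicates 1 and 2 of both genotypes. The other Ncam1 probe sets fell below the intensity minimum and were not tested. The one of array A had means of 3.39 ± 3.30 and 3.25 ± 2.00 in 2N and Ts1Cje, and the one of array B 3.43 ± 2.02 and 4.01 ± 2.15.

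L1cam, an axon growth and fasciculation molecule encoded on the X chromosome, had a probe set on each array, both slightly lower in Ts1Cje without passing. On array A the 2N samples ran from 128 through a median of 132 to 158 and the Ts1Cje samples from 79.4 through 128 to 165, with replicate 2 as the lowest. The log2 difference was -0.10 (SE 0.14, 95% interval -0.40 to 0.19), and it lay above 0 among replicates 3 to 6 (0.04) and without Ts1Cje replicate 2 (0.03). On array B the 2N samples ran from 336 through 402 to 439 and the Ts1Cje samples from 331 through 348 to 408. There the log2 difference was -0.14 (SE 0.078, interval -0.31 to 0.02, limma adjusted p = 0.996).

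Chl1, the close homologue of L1, was nearly equal in both genotypes on both arrays. Its array B probe set was at 248 ± 15.5 in 2N and 248 ± 17.2 in Ts1Cje (SD, n = 6), with samples from 228 to 273 and from 228 to 269. The log2 difference was -0.000266 (SE 0.070, 95% interval -0.15 to 0.15). On array A the samples were more scattered, from 99.2 to 196.8 in 2N and from 124 to 179.5 in Ts1Cje, and the difference was -0.00332 (SE 0.13). A further array A probe set, at 2.32 ± 0.867 and 2.86 ± 1.76, was below the intensity minimum.

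Nrcam and Nfasc, which with ankyrins cluster sodium channels at nodes of Ranvier and axon initial segments, were likewise within their spread. Nrcam ran from 54.7 through a median of 58.7 to 78.2 in 2N and from 56.1 through 61.9 to 75.1 in Ts1Cje, with a log2 difference of -0.00396 (SE 0.12, 95% interval -0.26 to 0.25). The brighter Nfasc probe set ran from 196.5 through 222 to 238 in 2N and from 176 through 213 to 233 in Ts1Cje, with a difference of -0.09 (SE 0.077, interval -0.25 to 0.08). Its dimmer one, at 31.5 ± 7.63 and 33.4 ± 5.59, differed by 0.10 (SE 0.16). The Nfasc probe sets thus lay on opposite sides of 0, both with intervals that hold it.

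Cntn1, a contactin that joins the axon-glia junction beside nodes of Ranvier, was measured by 3 probe sets. On array A it ran from 126 through a median of 140.2 to 165 in 2N and from 109 through 144 to 156 in Ts1Cje (log2 difference -0.03, SE 0.097). On array B the differences were 0.12 (SE 0.15) and 0.13 (SE 0.13), and the samples of both genotypes overlapped in each. The probe set at 0.13 carries the suffix that marks probes shared with related sequences.

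Cntn2, also called TAG-1, a contactin of growing axons, gave the most negative difference among the members. One of its probe sets ran from 119 through a median of 143 to 148 in 2N and from 113 through 117 to 133 in Ts1Cje. All 2N samples except replicate 1 lay above every Ts1Cje sample. The 2N mean was 139 ± 10.6 and the Ts1Cje mean 120.3 ± 8.63 (SD, n = 6), and the log2 difference was -0.21 (SE 0.078, 95% interval -0.37 to -0.04, unadjusted p = 0.016, limma adjusted p = 0.996). The other Cntn2 probe set, at 136 ± 14.8 and 131 ± 13.8, differed by -0.06 (SE 0.091). The genotype differences of the Cntn2 probe sets were 0.15 apart (exact permutation p = 0.0693, adjusted p = 0.346 over the 5 such pairs of the members). This test did not separate the Cntn2 probe sets, and with 6 samples per genotype it does not show that they agree.

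Alcam, which like Dscam lies on chromosome 16 but on the centromeric side of Sod1 and so outside the extra copy, did not pass on either array. The array A probe set ran from 37.1 through a median of 41.1 to 44.95 in 2N and from 31.0 through 35.7 to 43.0 in Ts1Cje. Its log2 difference was -0.18 (SE 0.12, 95% interval -0.44 to 0.07, limma adjusted p = 0.99). Of the 6 Ts1Cje samples 4 lay below the lowest 2N sample, and the exact permutation p, not adjusted, was 0.0455. The array B probe sets ran from 81.9 to 112 and from 38.7 to 52.3 in 2N, and from 73.1 to 115 and from 41.4 to 51.0 in Ts1Cje. They differed by 0.02 (SE 0.11) and 0.06 (SE 0.10), on the other side of 0 from the array A value. Their exact permutation p was 0.855 and 0.420.

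**Figure D4:**
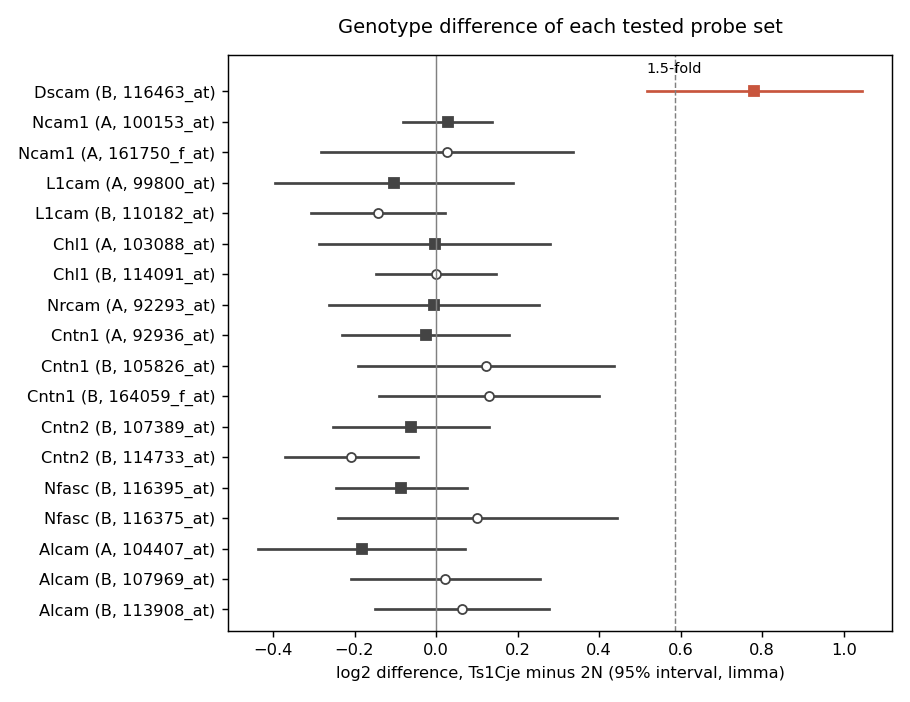
Log2 difference between Ts1Cje and 2N (horizontal axis) with its 95% limma interval for the 18 tested probe sets; filled squares are the probe sets that represent a gene, open circles its other probe sets, and the dashed line marks 1.5-fold. The interval of Dscam holds 1.5-fold and excludes 0, and the other 17 end below 1.5-fold.

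Further immunoglobulin-family adhesion genes were described in the same way. Of 34 listed, 28 were on the arrays and 23 were tested. None passed, 15 were above 0 and 8 below, and the median log2 difference was 0.06. An unadjusted p under 0.05 was reached by 1 of the 23, near the share of all probe sets (3.63% for array A, 4.24% for array B). That p belonged to Jam3, a junctional adhesion gene, at 16.8 ± 3.61 in 2N and 24.9 ± 7.51 in Ts1Cje (SD, n = 6; log2 difference 0.55, SE 0.22, limma adjusted p = 0.99). Next were the nectin gene Nectin1 (0.24, SE 0.14), whose other probe set was at -0.04, and the tight-junction gene F11r (0.31, SE 0.20). Of the listed genes on chromosome 16 outside the extra copy, Ncam2 and Jam2 differed by 0.30 (SE 0.39) and -0.18 (SE 0.23), and both probe sets were dim. Lsamp differed by -0.09 (SE 0.15). Nectin3 differed by 0.14 (SE 0.45), and its 3 array B probe sets ran from -0.45 to 0.07. These genes and Igsf5 were chosen for their place on chromosome 16, after their values were seen.

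Genes for binding partners and effectors of the members were described as well. Of 34 listed, 32 were on the arrays, 30 were tested and 0 passed in limma. The log2 difference was above 0 for 15 and below it for 15, with a median of -0.01 and a range of -0.96 to 0.17. An unadjusted p under 0.05 was reached by 2 of the 30, where 3.63% (array A) and 4.24% (array B) of all probe sets had one. Rdx, which encodes the membrane-actin linker radixin, was at 54.0 ± 10.4 in 2N and 40.1 ± 8.46 in Ts1Cje (SD, n = 6; log2 difference -0.43, SE 0.16, limma adjusted p = 0.99). Cntnap1, the axonal partner of Cntn1, was dim on array A, at 11.2 ± 4.29 and 5.94 ± 2.85 (-0.96, SE 0.38, adjusted p = 0.99), and its array B probe set differed by -0.14 (SE 0.39). Dcx, a microtubule-binding protein of migrating neurons that can bind Nfasc, differed by 0.12 (SE 0.064). The ankyrin genes Ank2 and Ank3 differed by -0.04 (SE 0.065) and -0.06 (SE 0.094), and the polysialyltransferase genes of Ncam1, St8sia2 and St8sia4, by -0.14 (SE 0.079) and 0.09 (SE 0.12). The ankyrin and polysialyltransferase genes were chosen for their link to the members after their values were seen.

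**Figure D5:**
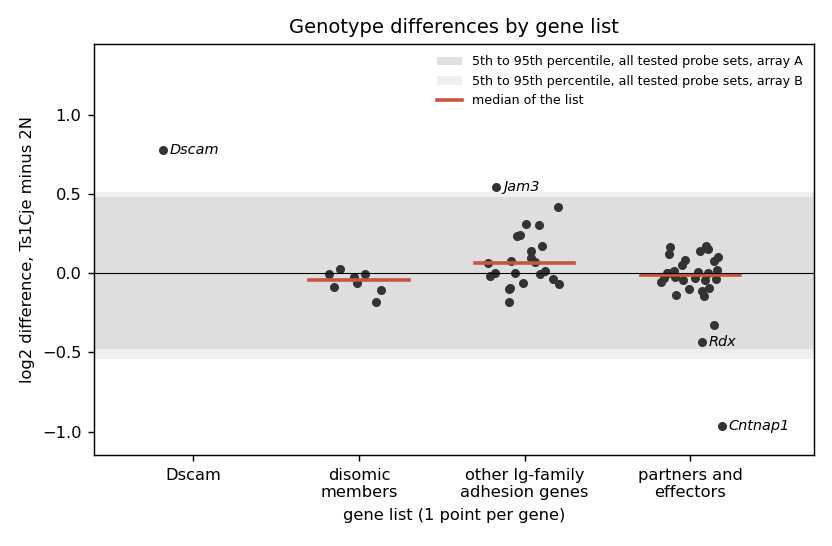
Log2 difference between Ts1Cje and 2N (vertical axis), 1 point per gene, for Dscam, the 8 disomic members, 23 other immunoglobulin-family adhesion genes and 30 partners and effectors; red lines are medians (-0.04, 0.06 and -0.01) and the shaded bands span the 5th to 95th percentile of all tested probe sets of each array. Dscam and Jam3 lie above the bands and Cntnap1 below them.

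The tissue label was checked against marker genes. On array A the 9 neuronal markers, by their brightest probe sets, had means from 33.4 (Nefm) to 2739 (Tubb3). The median over all tested probe sets was 30.8. On array B Snap25, at 2.19, was below the intensity minimum and was not tested. The summed intensity of the neuronal markers was largely that of Tubb3 and Stmn2 (1867) on array A. It overlapped between genotypes for array A (5429 to 6201 in 2N and 5824 to 6661 in Ts1Cje) and for array B (1128 to 1327 and 1044 to 1306). In limma 0 of 9 and 0 of 4 tested genes passed. On array A the mean was below the intensity minimum for 2 of 3 liver markers and for 3 of 7 markers of oligodendrocytes and myelin. The other 1 and 4 were above it. In the liver list Alb and Apoa1 were below the minimum and Ttr, at 241, was above it. The mean was also below the minimum for 1 of 4 skeletal muscle and 1 of 6 microglia markers, but for 0 of 4 pituitary and 0 of 3 blood markers. On array B 0 of 2 oligodendrocyte and 0 of 1 liver markers were below it. Markers listed for tissues other than brain thus passed the minimum as well. Passing it does not by itself show that such a tissue was present. The summed markers of progenitors, astrocytes, oligodendrocytes, microglia, endothelium, blood, muscle, liver and pituitary overlapped too on each array that held them. Of the 77 tested marker probe sets 0 passed in limma and 4 (5.19%) had an unadjusted p under 0.05. These were a probe set of the oligodendrocyte gene Sox10 on array B (log2 difference 0.46, SE 0.13, with 4 of 6 Ts1Cje samples above all 2N samples), of the astrocyte gene Glul on array A (0.38, SE 0.14), of the endothelial gene Flt1 on array B (-1.07, SE 0.38) and of the liver gene Apoa1 on array B (0.94, SE 0.41). The brighter Sox10 probe set of array A differed by -0.06 (SE 0.17) and the dimmer by -0.30 (SE 0.49). The other Glul probe set of array A differed by 0.04 (SE 0.18), and those of array B by 0.21 (SE 0.19) and 0.19 (SE 0.14). Flt1 differed by -0.09 (SE 0.31) and -0.58 (SE 0.51) on array A. The Flt1 and Apoa1 probe sets of array B were dim, with means of 8.04 and 8.23. The Apoa1 probe set of array A was below the intensity minimum. The part of these markers in the Dscam difference was not tested. In bulk tissue, fewer cells of a type and less RNA per cell cannot be told apart. The median of the deposited intensities ranged from 11.2 to 21.7 over the samples of array A and from 7.9 to 13.8 over those of array B.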

How the data were processed

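The authors deposited 1 intensity for each probe set and sample; the software and scaling behind it are not known here. Trimmed means (2% at each end) of the deposited intensities varied 2.10-fold among the samples of array A and 1.86-fold among those of array B, so both tables were quantile normalised. After removal of 66 control probe sets per array, values were raised to the 10th percentile of the table (1.47 and 1.13) and converted to log2. Testing was limited to probe sets whose mean reached the 25th percentile (5.11 and 3.90), which left 9316 and 9308. limma 3.58.1 in R 4.3.3 (lmFit, eBayes with trend) compared Ts1Cje with 2N in each table separately. The threshold was 0.05 after Benjamini-Hochberg adjustment over the table. The fit was tested on simulated data.

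Symbols came from the platform annotation, which named 1 gene for 10833 and 10581 probe sets, several for 396 and 178 (left unnamed) and none for 1193 and 1652. Gene order was that of GRCm38.p6. Members and lists were chosen with earlier results of these data known. Beside the members, the text names the 3 genes of smallest p in each list. It also names the 3 nearest tested genes on each side of Dscam and the 5 probe sets most like it. Alternatives changed the normalisation, floor, offset, filter, trend, weights, block, replicate split, gene summary and threshold, and left out each sample. The number of arrays limits the precision.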

Additional observations from a re-analysis of the deposited data

Results flagged for a closer look

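In 1 of the 36 groups of 6 samples of tested member probe sets, a sample stood far from the others on the log2 scale. It was 2N replicate 4 in the L1cam probe set of array A, at 158.0, where the other 2N samples lay between 127.8 and 134.3. On the log2 scale its gap was 0.77 of the range of the group, above Dixon's 95% critical value for 6 samples. On the linear scale its gap was 0.786 of the range, and a second group passed as well, Nrcam in Ts1Cje, where replicate 6 was at 75.1 and the others between 56.1 and 62.9 (0.642 of the range). About 1 such group in 20 arises by chance. Without this sample the L1cam difference was -0.06.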

How the results depend on the processing

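The Dscam log2 difference stayed above 0 in all 25 refits, from 0.34 with 64 added to each intensity to 0.89. Its limma call was lost, so that 0 and not 1 of the member genes passed, under 5 settings beside the samples left out. These were no normalisation between arrays (0.83, limma adjusted p = 0.99996), no filter on dim probe sets (0.78, limma adjusted p = 0.0613), no mean-variance trend (0.78, limma adjusted p = 0.207), replicates 3 to 6 only (0.73, limma adjusted p = 0.285) and replicates 1 and 2 only (0.89, limma adjusted p = 0.464). The subsets hold fewer samples; for the other settings the cause was not tested. With each sample left out in turn the difference ran from 0.73 to 0.84 and the number called from 0 to 1, with adjusted p up to 0.0574. The exact permutation p of Dscam passed 0.05 in every setting except replicates 1 and 2 only (0.333); it was not rerun for the filter, trend and weight settings, which leave its values as they are. Over all probe sets 9 (array A) and 6 (array B) passed, against 0 and 0 without normalisation, 2 and 0 without the trend, 0 and 0 in replicates 1 and 2, 6 and 1 in replicates 3 to 6, and 8 and 2 without a filter; on array B 1 passed without 2N replicate 5, Ts1Cje replicate 1 or Ts1Cje replicate 2. None of the 425 refits of the 17 disomic probe sets passed, and the median of the 8 disomic genes stayed between -0.09 and -0.00211.

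Some of the small disomic differences changed sign without passing. Without normalisation Ncam1 on array A was at -0.0532 and -0.0306 (the dimmer probe set) and Chl1 on array B at 0.0403; with array weights Chl1 on array B was at 0.00461. In replicates 3 to 6 L1cam on array A was at 0.0402, Nrcam at 0.0774, Cntn1 on array A at 0.0183 and its brighter array B probe set at -0.0031. In replicates 1 and 2 the dimmer Ncam1 probe set was at -0.15, Chl1 at 0.18 (array A) and 0.0308 (array B), and the dimmer Alcam probe set of array B at -0.0076. With samples left out the ranges that crossed 0 were -0.0372 to 0.11 for the dimmer Ncam1 probe set, -0.18 to 0.031 for L1cam on array A, -0.11 to 0.0866 and -0.0246 to 0.0287 for Chl1 on arrays A and B, -0.0563 to 0.0593 for Nrcam, -0.0593 to 0.0438 for Cntn1 on array A and -0.0263 to 0.11 for the brighter Alcam probe set of array B.

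Same-numbered samples of the genotypes deviated together only weakly (r of 0.0171 to 0.0767 for array A and 0.0127 to 0.11 for array B, 6 pairs each; 3 and 2 of the 2N samples correlated best with their own number), so the numbers were not treated as pairs. With the replicate number as a block the Dscam difference was 0.78 (limma adjusted p = 0.0178), and the counts of 9 and 6 calls were the same.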
